A study of Homo sapiens with 2 samples.

Results

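The PI3K-related kinases (PIKKs) are a small family of giant proteins, and the mRNAs of its 6 human members, PRKDC, ATM, ATR, MTOR, SMG1 and TRRAP, were followed in RNA that co-precipitated with LRPPRC. The members were taken by gene name, and all 6 were found among 16770 gene names of the deposited table, which has 21262 rows. The family was selected on its FPKM in these 2 libraries, since it was proposed with those values in view, so the levels of its members are given as a description without a test.

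RNA immunoprecipitation (RIP) captures a protein from a lysate with an antibody and sequences the RNA that comes with it. The lysates were from A549, a human lung adenocarcinoma cell line, of wild type genotype with no treatment named in the labels, and anti-LRPPRC antibody was used for both libraries, replicate 1 and replicate 2 of 1 condition. The series description calls the replicates technical and the study calls them biological, so their spread may be no more than technical. No input or IgG library was used here. The values are FPKM, fragments scaled to transcript length and to the mapped fragments of each library, and give the level of an mRNA in the precipitate per length. They do not give enrichment over its level in the cell.

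LRPPRC is a pentatricopeptide repeat protein of mitochondria and cytoplasm that binds RNA and stabilizes it. PIKKs resemble lipid kinases of the PI3K class, but those that are active phosphorylate serine and threonine residues of proteins. DNA-PKcs, encoded by PRKDC, joins broken DNA ends together with the Ku heterodimer, ATM responds to DNA double-strand breaks, and ATR responds to single-stranded DNA at stalled forks. MTOR couples growth to nutrients, SMG1 phosphorylates UPF1 in nonsense-mediated mRNA decay, and TRRAP is a scaffold of histone acetyltransferase complexes that has lost kinase activity. All are built from long helical repeats followed by a domain of the PI3K type.

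The coding sequences of the family were searched for the 4 codons of the catalytic loop, which encode glycine, aspartate, arginine and histidine in this order. The codons are shown because they mark the kinases with activity among the members. PRKDC, SMG1, MTOR, ATR and ATM held 1 match each and TRRAP held none. Of 16376 protein-coding genes of the table with a coding sequence in GENCODE 44, 32 (0.195%) held a match. In SMG1 the match lay at codon 2334, with 1327 codons after it, whereas in the other 4 genes with a match between 170 and 212 codons followed. The stretches of 3 members below run 5′ to 3′ on the coding strand of GENCODE 44 transcripts on GRCh38, and capitals mark the 4 codons.
ATM: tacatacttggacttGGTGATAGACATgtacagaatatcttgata
ATR: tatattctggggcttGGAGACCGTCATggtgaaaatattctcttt
SMG1: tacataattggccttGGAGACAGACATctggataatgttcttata
The stretch of ATM is in exon 59 at chr11:108347284-108347328, that of ATR in exon 44 at chr3:142459012-142459056 and that of SMG1 in exon 43 at chr16:18838606-18838650. ATM lies on the plus strand and the other two on the minus strand.

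PRKDC was the most abundant PIKK mRNA in the precipitate by a wide margin. It had 322 FPKM in replicate 1 and 319 in replicate 2, a mean of 320.4 ± 2.00 FPKM (SD, n = 2). Its lower library was far above the highest value of any other member, with 4.75 times the next member in replicate 1 and 4.88 times in replicate 2. PRKDC alone made up 60.3% of the summed FPKM of the family in replicate 1 and 62.2% in replicate 2. Among 10631 named genes with a mean of at least 1 FPKM it ranked 46, and its level was 48.5 times their median of 6.60 FPKM.

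TRRAP and SMG1 followed, and their libraries overlapped. TRRAP had 66.8 FPKM in replicate 1 and 65.3 in replicate 2 (66.1 ± 1.04, SD, n = 2), rank 501 of the 10631 genes. SMG1 had 67.7 FPKM in replicate 1 and 48.0 in replicate 2 (57.9 ± 13.9, SD, n = 2), rank 584. SMG1 was thus marginally above TRRAP in replicate 1 and below it in replicate 2, and their order is not resolved by these libraries.

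MTOR stood lower, at 35.7 FPKM in replicate 1 and 35.5 in replicate 2 (35.6 ± 0.145, SD, n = 2), rank 1136. Both of its values were below those of SMG1 and above those of the DNA damage kinases ATR and ATM. ATR had 22.5 FPKM in replicate 1 and 22.4 in replicate 2 (22.5 ± 0.0728, SD, n = 2), and ATM had 19.6 and 22.3 (20.9 ± 1.93, SD, n = 2). The lower library of ATR, at 22.41 FPKM, was above the higher library of ATM, at 22.31, by far less than the SD of ATM, so these neighbours did not differ beyond their spread. From the highest to the lowest member the levels spanned 16.4 times in replicate 1 and 14.3 times in replicate 2.

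Of the 6 members, 4 had a mean above 30 FPKM, the limit the study applied to bound transcripts, beside 13.3% of the 10631 genes. MTOR, at 35.6 FPKM, was the nearest member above that limit and ATR, at 22.5, the nearest below it. The measure is the one by which the family was known when it was proposed, and nothing is read from the count.

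All 6 genes have long and finely divided coding sequences. In GENCODE 44 on GRCh38, PRKDC (ENSG00000253729.9) lies on chromosome 8 from 47773111 to 47960178 and is divided into 86 exons, with 12384 coding bases for a protein of 4128 residues. TRRAP (ENSG00000196367.15), on chromosome 7 from 98877933 to 99050831, has 73 exons and 11619 coding bases. SMG1 (ENSG00000157106.18), on chromosome 16 from 18804860 to 18926408, has 63 exons and 10983 coding bases. The coding sequences of these 3 mRNAs are the longest of the family, and the 3 are also the most abundant of it. Among the other 3 members level did not follow length, as MTOR had the shortest coding sequence and the highest FPKM.

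The other 3 members are shorter. ATM (ENSG00000149311.20), on chromosome 11 from 108223044 to 108369102, has 63 exons and 9168 coding bases. ATR (ENSG00000175054.16), on chromosome 3 from 142449007 to 142578733, has 47 exons and 7932 coding bases, and MTOR (ENSG00000198793.14), on chromosome 1 from 11106535 to 11262556, has 58 exons and 7647. Even MTOR exceeded 98.5% of the 10542 protein-coding genes with a mean of at least 1 FPKM in coding length, whose median was 1455 bases.

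Outside the coding sequence the mRNAs had little in common. The 3′ UTR was 4709 bases in SMG1 and 3594 in ATM, but 1062 in PRKDC, 950 in MTOR, 886 in TRRAP and 194 in ATR, against a median of 1414 over the same genes. The GC content of the coding sequence was 38.8% in ATM, 40.0% in ATR, 44.3% in SMG1 and 45.9% in PRKDC, each below the median of 51.1%, and 53.1% in TRRAP and 53.2% in MTOR. The 2 members below 30 FPKM, ATM and ATR, were those with the lowest GC content, whereas PRKDC, with the highest level, was also below the median. Over 6 genes this is a description.

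The length of these mRNAs matters for how the levels are read, because FPKM divides by it. Multiplied by the length of the canonical transcript in kb, which approximates the share of sequenced fragments, PRKDC had 4331 in replicate 1 and 4293 in replicate 2 (4312 ± 26.96, SD, n = 2). That was the highest value of all 16471 genes with a matched transcript, ahead of SRRM2, a splicing factor, at 3944. PRKDC accounted for 0.544% of the sum of this product in replicate 1 and 0.545% in replicate 2. All 6 members together accounted for 0.880% and 0.847%, compared with 0.272% and 0.263% of the summed FPKM.

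By this product the order within the family changed in its middle and at its end. SMG1 came next at 930 ± 224 (SD, n = 2), above TRRAP at 837 ± 13.1 (SD, n = 2), and their libraries still overlapped. MTOR had 310.2 ± 1.27 (SD, n = 2). ATM, at 270.5 ± 24.9 (SD, n = 2), passed ATR, at 183 ± 0.594 (SD, n = 2), and both libraries of ATM were above both of ATR. Lengths were taken from GENCODE 44, which is newer than the study's annotation, and the transcripts it assigned fragments to are not given per gene, so the product need not equal its fragments.

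Genes with very long proteins were in general at higher levels in the precipitate. Of 173 protein-coding genes with at least 2500 residues and a mean of at least 1 FPKM, 52 (30.1%) were above 30 FPKM, with a median of 19.01 FPKM, whereas 13.1% of 10369 genes with shorter proteins were, with a median of 6.56. The median rose with each class of length from 250 residues on, from 5.65 FPKM between 250 and 500 residues to 10.7 between 1000 and 1500 and 13.5 between 1500 and 2500. Across the 10542 genes, Spearman's rho of FPKM and coding length was 0.16, a description across genes that share 2 libraries and whose FPKM is itself divided by length.

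Within this class of long genes the family was spread widely. PRKDC ranked 2 of the 173, behind SRRM2 at 436 ± 1.14 FPKM (SD, n = 2) and ahead of the ubiquitin ligase HUWE1 at 215 ± 7.20 (SD, n = 2), the cytoskeletal linker MACF1 at 136 ± 27.3 (SD, n = 2) and the actin crosslinker FLNA at 132 ± 1.98 (SD, n = 2). TRRAP was 13, SMG1 18, MTOR 42, ATR 68 and ATM 75 of 173, all above the median of the class. Without the 6 members, 28.7% of 167 long genes were above 30 FPKM.

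The libraries agreed closely for 4 members and not for SMG1. The log2 ratio of replicate 2 to replicate 1 was -0.01 for PRKDC, -0.03 for TRRAP, -0.01 for MTOR and -0.01 for ATR. Among genes within 2 times of the level of each, the median absolute log2 ratio was between 0.037 and 0.045, so these 4 members were inside the usual spread. ATM differed by 1.14 times (log2 ratio 0.19), the 199th largest of 2941 genes at its level. SMG1 differed by 1.41 times (log2 ratio -0.50), the 8th largest of 1280 genes at its level. Of the 6 members, only SMG1 differed by more than 1.2 times, beside 4.06% of the 4016 genes with a mean of at least 10 FPKM, and SMG1 and ATM differed by more than 1.1 times, beside 11.6%. Of the 115 of these genes with a protein of at least 2500 residues, 8 (6.96%) differed by more than 1.2 times, compared with 3.91% of 3885 genes with shorter proteins.

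SMG1 is also the member whose sequence is repeated in the genome. Segments of at least 50 bases and 95% identity elsewhere on the main chromosomes of GRCh38 covered 4105 of its 10983 coding bases (37.4%), all within the first 4234 bases, and every one lay in an SMG1 pseudogene, SMG1P1 to SMG1P7, on chromosome 16. The aligned segments were 98.0% identical to SMG1 on average. SMG1P5 covered the most of the coding sequence, 36.8%, and SMG1P7 the least, 25.8%. The same search found 129 bases (1.41%) in ATM, 66 bases (0.533%) in PRKDC and none in TRRAP, MTOR or ATR.

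Sequences of SMG1 and its copies show how little separates them. A stretch of 60 coding bases in exon 14 of SMG1, at chr16:18872565-18872624 on the minus strand, was the one nearest the start codon among those covered by all 7 copies. It was identical in all 7, here in the orientation of the mRNA.
SMG1 and 7 copies: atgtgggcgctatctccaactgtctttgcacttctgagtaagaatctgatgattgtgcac
Of 956 such stretches covered by all 7 copies, the most divergent lay in exon 27, at chr16:18859634-18859693 on the minus strand. There the copies differed from SMG1 at 4 to 6 of 60 bases, in capitals below. SMG1P1, at chr16:22490305-22490364 on the plus strand, shared its sequence with SMG1P2, SMG1P3, SMG1P4 and SMG1P5, while SMG1P6, at chr16:29427260-29427319, and SMG1P7, at chr16:70221332-70221391, both on the minus strand, had their own.
SMG1: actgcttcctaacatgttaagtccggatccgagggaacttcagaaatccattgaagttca
SMG1P1: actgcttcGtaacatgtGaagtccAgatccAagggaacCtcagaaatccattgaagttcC
SMG1P6: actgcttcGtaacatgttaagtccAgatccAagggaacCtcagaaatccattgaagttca
SMG1P7: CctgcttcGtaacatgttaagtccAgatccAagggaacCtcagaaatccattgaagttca
Of 7266 stretches of 60 coding bases that lie within an exon of SMG1, 1460 (20.1%) occurred without a difference in at least 1 copy. No named row other than SMG1 itself has a name that starts with SMG1, and other names of the copies were not searched. The level of SMG1 is uncertain where fragments could have been placed at either locus. The part of the copies in the difference between the libraries was not tested.

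Exons of other genes overlapped the members over few bases. C11orf65, on the opposite strand, shared 114 exonic bases with ATM and had 0.368 FPKM in replicate 1 and 0.208 in replicate 2, far below ATM. Noncoding genes on the opposite strand shared 89 bases with MTOR (MTOR-AS1), 158 with PRKDC, 171 with SMG1 and 456 with TRRAP, and had no row of their own by name. The kit marks strand, but the sources used here do not say whether counting used it.

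The kinases were at higher FPKM than most of the mRNAs that encode their partners, from which they also differ in length. For each member, genes of its complexes, activators and targets were listed from textbook knowledge, 120 different genes in 10 lists together with the PIKK chaperones and the lipid kinases. Of the 113 with a mean of at least 1 FPKM, 21 (18.6%) were above 30 FPKM and the median was 8.93 FPKM, beside 13.3% and a median of 6.60 over the 10631 genes with the same minimum. The median partner protein had 523.5 residues, and EP400 of NuA4/TIP60, with 3123 residues and 27.3 FPKM, was the only one of the 120 at least as long as MTOR, the shortest member. The levels of the members had chosen the family, and long genes in general were higher in FPKM. The ratio of a member to the median of a whole partner list, without that minimum, was lowest for ATM, at 1.62, and next lowest for ATR. It lay between 3.99 and 8.99 for MTOR, SMG1 and TRRAP and was 115 for PRKDC. Genes below 1 FPKM were in the lists of PRKDC, ATR and SMG1 and in that of the mTOR complexes. They lower those medians and raise those ratios, so the 115 and the order above ATM hold only for whole lists. With the minimum of 1 FPKM, the median of the 167 other long genes, 18.6 FPKM, stood beside 6.56 for genes with shorter proteins. The part of length in these ratios was not tested.

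PRKDC exceeded all 10 genes of DNA end joining in both libraries. The nearest were the Ku subunits that load DNA-PKcs onto DNA ends, XRCC5 (Ku80) at 167 ± 4.68 FPKM (SD, n = 2) and XRCC6 (Ku70) at 49.4 ± 0.469 (SD, n = 2), followed by the ligase cofactor XRCC4 at 19.8 ± 1.12 (SD, n = 2). Of the 8 genes of the list with a mean of at least 1 FPKM, 2 (25%) were above 30 FPKM, beside 13.3% of all named genes with that minimum. The median of all 10 genes of the list, those below 1 FPKM among them, was 2.78, so it is not set beside the median of those named genes. At the low end of the list the polymerase POLM had 0.622 FPKM, and C9orf142, now PAXX, had 0.648. From PRKDC to XRCC6 the levels of the DNA-PKcs and Ku mRNAs spread over 6.48 times.

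ATM was above 8 and below 3 of 11 genes of its pathway in both libraries. The 3 were mediators and sensors of breaks, MDC1 at 29.2 ± 0.652 FPKM (SD, n = 2), TP53BP1 at 27.8 ± 0.364 (SD, n = 2) and NBN at 27.3 ± 4.43 (SD, n = 2). None of the 11 had a mean above 30 FPKM, beside 13.3% of all named genes with a mean of at least 1 FPKM. The median of the 11 was 12.9. In the MRN complex that activates ATM the subunits differed, with RAD50 at 17.6 FPKM and MRE11A at 7.30 besides NBN. The effector kinase CHEK2 had 6.21 FPKM and the ubiquitin ligase RNF8, lowest of the list, 1.86.

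ATR was above 9 and below 5 of 14 genes of its pathway in both libraries. RPA1, the large subunit of the single-strand binding protein RPA, had 76.5 ± 1.14 FPKM (SD, n = 2), the clamp loader RAD17 53.3 ± 1.17 (SD, n = 2), the fork protein TIMELESS 50.8 ± 0.278 (SD, n = 2) and the activator TOPBP1 50.5 ± 1.03 (SD, n = 2). These 4 were the genes above 30 FPKM. They were 30.8% of the 13 with a mean of at least 1 FPKM, beside 13.3% of all named genes with that minimum. The median of all 14 genes of the list was 7.49. ATRIP, the obligate partner of ATR, had only 3.38 FPKM in replicate 1 and 5.56 in replicate 2. The lowest were the activator ETAA1 at 2.23 FPKM and the small RPA subunit RPA3 at 0.821, so the RPA trimer was spread widely, with RPA2 at 11.4.

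MTOR was close to RICTOR, the defining subunit of mTORC2, which had 36.7 ± 1.13 FPKM (SD, n = 2) with libraries of 37.4 and 35.9, both just above those of MTOR. Another mTORC2 subunit, MAPKAP1, had 68.7 ± 2.41 (SD, n = 2), while RPTOR, which defines mTORC1, had 19.5 ± 0.535 (SD, n = 2) and MLST8, shared by both complexes, 3.28. Of 6 subunits with a mean of at least 1 FPKM, 2 (33.3%) were above 30, beside 13.3% of named genes with that minimum. The median of all 8 subunits was 5.67, and PRR5 and PRR5L, both below 1 FPKM, were lowest at 0.332 and 0.587. Among 16 regulators and targets MTOR was above 15 in both libraries. The exception was the Rag GTPase RRAGC at 57.7 ± 2.44 FPKM (SD, n = 2), followed by RRAGA at 31.2 ± 0.794 (SD, n = 2) and the activating GTPase RHEB, with 25.3 in replicate 1 and 24.7 in replicate 2. This list had 2 genes (12.5%) above 30 FPKM, beside the same 13.3%, and a median of 8.91. Its lowest were the Ragulator subunits LAMTOR4 at 1.58 FPKM and LAMTOR3 at 1.33.

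SMG1 was above 9 and below 1 of 10 genes of nonsense-mediated decay and termination in both libraries. The exception above it was the termination factor GSPT1 (eRF3a) at 79.5 ± 0.122 FPKM (SD, n = 2). ETF1 (eRF1) followed at 31.1 ± 0.260 (SD, n = 2), and UPF2, which joins UPF1 to UPF3 proteins, had 16.0 ± 0.849 (SD, n = 2). GSPT1 and ETF1 were the 2 genes above 30 FPKM. They were 22.2% of the 9 with a mean of at least 1 FPKM, beside 13.3% of all named genes with that minimum. The median of all 10 was 11.6. UPF1, the substrate of SMG1, had 12.7 ± 0.295 FPKM (SD, n = 2), and SMG9 and SMG8, which bind and regulate the kinase, had 6.43 and 5.42. The exon junction adaptors UPF3A and UPF3B were lowest, at 1.49 and 0.947 FPKM.

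TRRAP was above 14 of 16 subunits of the NuA4/TIP60 complex and 17 of 18 subunits of SAGA in both libraries. In NuA4/TIP60 the chromodomain protein MORF4L1 had 148 ± 1.08 FPKM (SD, n = 2) and the ATPase RUVBL2 90.3 ± 2.71 (SD, n = 2), both above TRRAP, and ACTL6A had 37.7 ± 0.307 (SD, n = 2). These 3 of 16 (18.75%) were above 30 FPKM, beside 13.3% of all named genes with a mean of at least 1 FPKM. The median of the 16 was 7.92. The acetyltransferase of the complex, KAT5 (TIP60), was lowest at 1.55 FPKM, next to YEATS4 at 1.85. In SAGA the deubiquitinase USP22, at 68.7 ± 0.567 FPKM (SD, n = 2), was just above TRRAP and alone above 30. That was 5.56% of the 18 subunits, beside the same 13.3%. SUPT20H followed at 16.2 and ATXN7L3 at 13.2. The median was 7.35, the acetyltransferases KAT2A and KAT2B had 6.55 and 6.12, and ENY2 and TAF6L were lowest at 1.71 and 1.26. TRRAP was 42.7 times KAT5, 10.1 times KAT2A and 10.8 times KAT2B in FPKM.

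**Figure D1:**
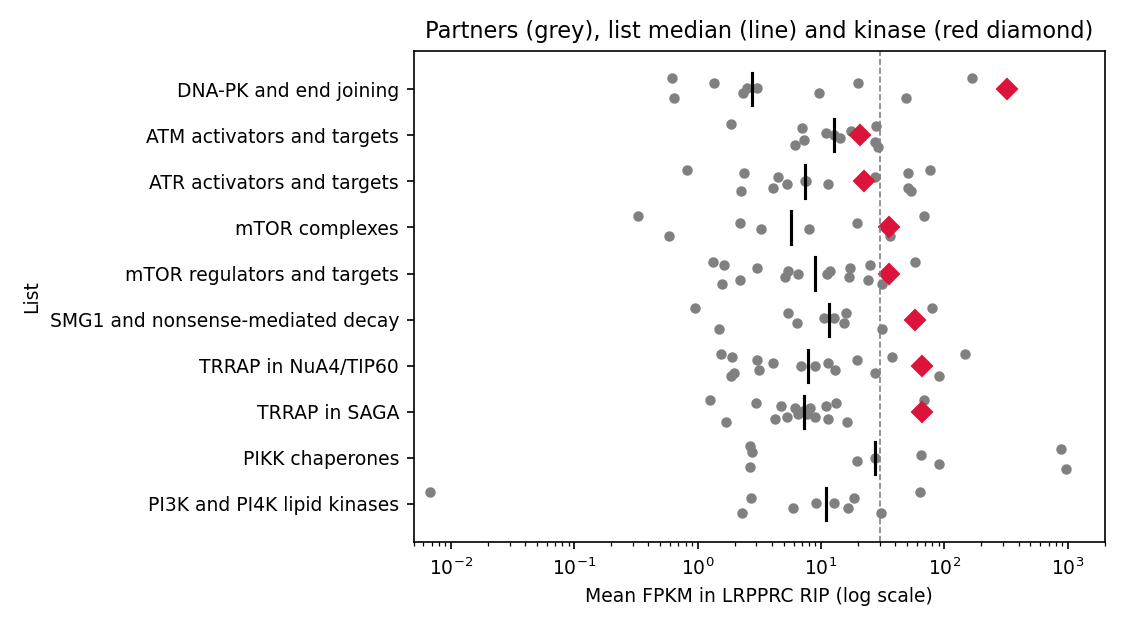
Genes of each of 10 lists by mean FPKM (x axis, log scale) (grey points, spread vertically for display), with the list median as a black line, the kinase each list belongs to as a red diamond and 30 FPKM as a dashed line. The diamond of PRKDC lies above its whole list, and those of ATM and ATR lie among the higher members of theirs.

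PIKKs are folded by a dedicated chaperone system, in which the TTT complex of TELO2, TTI1 and TTI2 works with HSP90 and the R2TP complex. The 9 mRNAs of this list spread over a wide range of levels. HSP90AB1 at 974 ± 43.7 FPKM (SD, n = 2) and HSP90AA1 at 881 ± 56.1 (SD, n = 2) were above every PIKK. RUVBL2, at 90.3, was above TRRAP, and TTI1, at 65.0 ± 1.42 (SD, n = 2), was near it. RPAP3 had 27.3 FPKM and RUVBL1 19.4. In contrast, TELO2 had 2.77 FPKM, TTI2 2.68 and the R2TP subunit PIH1D1 2.67. Of the 9, 4 (44.4%) were above 30 FPKM and the median was 27.3. Over the 10631 named genes with a mean of at least 1 FPKM these were 13.3% and 6.60. Within the TTT complex TTI1 was 23.5 times TELO2 and 24.3 times TTI2, with no overlap of their libraries.

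The lipid kinases, relatives of the PIKKs, were mostly lower. Of 10 genes, PIK3C2A, a class II PI3K, at 63.1 ± 0.730 FPKM (SD, n = 2), and PI4KA, at 30.8 ± 0.510 (SD, n = 2), had a mean above 30, and PI4KB followed at 18.4. The 2 above 30 were 22.2% of the 9 with a mean of at least 1 FPKM, beside 13.3% of the 10631 named genes with that minimum. The median of all 10, PIK3C2G below 1 FPKM among them, was 11.0, against 46.7 for the 6 PIKKs. The levels of the PIKKs had chosen the family, so nothing is read from their difference to the lipid kinases. PIK3CA, the class I catalytic subunit often mutated in cancer, had 12.8 ± 0.136 FPKM (SD, n = 2). PIK3CD, a leukocyte isoform, had 2.29, and PIK3C2G was lowest at 0.00673.

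With 1 condition, a pattern across samples cannot be set up, and the genes nearest to a member are only those with like levels in both libraries. By Euclidean distance of log2 FPKM over the 2 libraries, PRKDC was nearest to NFE2L2 (distance 0.016) and VIM (0.026), TRRAP to MRPL45 (0.0059) and CYB5R3 (0.0092), and MTOR to BZW2 (0.0060) and VPS54 (0.0078). ATR was nearest to DHX30 (0.0053) and FAM189B (0.0097), and ATM to TOP3A (0.044) and SOD1 (0.047). SMG1 had no neighbour as close. Its nearest, ANKRD17 at 63.0 and 46.5 FPKM and HBS1L at 59.2 and 50.3, lay at distances of 0.11 and 0.21. Both were also higher in replicate 1, which the choice by distance over both libraries favours, so nothing is read from it.

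The libraries as a whole were alike, with FPKM summing to 196627 in replicate 1 and 194839 in replicate 2. LRPPRC mRNA itself had 180 ± 5.51 FPKM (SD, n = 2). Of 5 epithelial markers, KRT8, KRT18 and KRT19 had 337, 51.1 and 12.1 FPKM, but CDH1 had 1.33 and EPCAM 0.430. Of 7 leukocyte, endothelial and fibroblast markers, 5 were listed, COL1A1 at 0.696 FPKM, CD14 at 0.294, PECAM1 at 0.192 with PDGFRB just above it, and VWF at 0.0402, and PTPRC and CD3E had no row by name.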

How the data were processed

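The authors deposited FPKM per gene for 2 LRPPRC RIP libraries. By the study's methods and the submitters' processing notes they removed adapters with cutadapt 1.18, aligned to GRCh38 with HISAT2 2.1.0 and quantified with StringTie 1.3.3b against Ensembl release 101, without pooling. Strand settings are not given in the sources used here.

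The mean and SD over both libraries, ranks and counts above 30 FPKM were computed, without a test, since there is 1 condition. Where a name had several rows, the row with the higher mean was kept, leaving 16770 names, of which 16471 were matched to canonical GENCODE 44 transcripts (888 by an older symbol). Copies were searched with blastn 2.17.0. The read depth is unknown. Of 5405 rows with a mean below 0.3 FPKM and no value of 0, at most 76 (1.41%) shared a log2 ratio within 0.02, so no steps of whole reads were found, and no counting intervals were computed.

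The members and lists were chosen with earlier results of these data known, and 1 gene and 1 sequence stretch are not reported here. In each list the 3 highest and 2 lowest genes are named, with subunits that complete a complex or are central to it. For the members also the 2 nearest genes are named, as are the 5 highest long genes. Ranking functions were tested on simulated data. Alternatives were other thresholds, single libraries, TPM, pseudocounts, filters, protein lengths and multiplication by length. Python 3.11.15, pandas 2.3.3 and Biopython 1.88 were used.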

Additional observations from a re-analysis of the deposited data

How the results depend on the processing

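The number of members above 30 FPKM was 4 by the mean, in both libraries, in either library and in each library alone, 6 at 20 FPKM and 3 at 50 FPKM. Of all 16770 named genes, 2198 passed 20 FPKM, 1418 passed 30 and 719 passed 50. As a change of unit, TPM gave means of 1637 for PRKDC, 337 for TRRAP, 296 for SMG1, 182 for MTOR, 115 for ATR and 107 for ATM. Of long genes, 98 of 323 with at least 2000 residues and 26 of 94 with at least 3000 were above 30 FPKM, and 79 of 173 with at least 2500 residues were above 20 FPKM and 24 above 50. Without a filter on low values the share of long genes above 30 FPKM was 19.9% of 261, beside 1418 of the 16770 named genes. The log2 ratio of the libraries moved by less than the usual spread under both pseudocounts and both scalings, but changed sign for PRKDC under TPM, and for MTOR and ATR under TPM and under scaling by the median ratio, each staying within 0.01 of 0. It stayed between -0.50 and -0.48 for SMG1. TRRAP and SMG1 exchanged places in replicate 1 alone and with transcript length, and ATM and ATR with transcript and coding length. Of 173 comparisons with an alternative, 131 stayed within the limit set for the value, but this tally does not measure robustness. For a mean the limit was the SD of both libraries, which each single library meets by construction and TPM, in another unit, does not. For a count the limit was a ratio, which 6 members against 4 still met. No paired analysis was possible because only 1 condition was measured. Low values carry an unstated error, as the files do not give the depth.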
